A study of Mus musculus with 13 samples.

Results

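The insertions described here are those that a pool of mouse embryonic stem cells carried on chromosomes 7, 11 and 19 after Sleeping Beauty transposons were mobilized out of transfected plasmids. All positions listed for these chromosomes in the plasmid pool were taken, and positions within 10 bp of each other on either strand were merged to 1 site. This gave 4013 sites, 12.9% of the 31146 sites of the whole pool, with 1634 on chromosome 7, 1614 on chromosome 11 and 765 on chromosome 19. The 5360 sites of the same library on chromosomes 1, 3 and 12 served as the reference. The study mapped transposons that carry a T7 promoter by transcribing outward from them on purified genomic DNA and sequencing the RNA made. The sample titles name the method T7 in situ transcription. The cells were F123, a hybrid line of a Cast and a 129 parent, grown in serum-free medium with LIF and the inhibitors PD0325901 and CHIR99021. The series also holds transposon-free control cells, a pool in which transposons already in the genome were remobilized by Sleeping Beauty expression, and 9 clonal lines. The parental line is not analysed here.

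Per the labels, the plasmid pool, the remobilized pool and the control were wild type and shared 1 sequencing batch, while the clones had a rad21-dTag genotype and a batch of their own. Each library was the only one of its group, so no value below has a replicate. Each p-value and interval covers only the counting of sites within 1 library, not the spread between cultures. The pool is a mixture of cells, and neither the number of cells nor the number of plasmid copies per cell was measured in the data used.

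Sleeping Beauty is a transposon of the Tc1/mariner family that was rebuilt from inactive copies in fish genomes. Its transposase binds the inverted terminal repeats, cuts the element out and joins it to a TA dinucleotide elsewhere, which is duplicated in the process. It is used in gene transfer and mutagenesis in part because it is known for a weak preference for genes, unlike retroviral vectors.

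Sequence could be read for sites inside annotated exons, and 9 of the better-supported ones, chosen after their values were seen and to include 3 with the motif described next, are printed to make the target visible. Sites were used here if the bases on both sides of them were also exonic, in an exon of any gene, so sites at exon edges were left out. Of the 210 such sites of chromosomes 7, 11 and 19, 204 had a TA within 2 bp of the deposited base, or 97.1% (95% exact Clopper-Pearson interval 93.9 to 98.9%). At 151 sites, 71.9%, the T lay just before the deposited base and the A on it. Exons of coding genes on these chromosomes held 43.6 TA per kb. The reference chromosomes had a TA within 2 bp at 224 of 232 such sites, 96.6%, and a difference between the shares did not pass Fisher's exact test (p = 0.791, odds ratio 1.21). Each run below is 24 bases of the plus strand of the GRCm38 reference, read 5′ to 3′ from GENCODE transcripts, with the TA in capitals. The reference is of another mouse strain than either parent of the cells, and strain variants at these sites were not analysed here.
Ptar1, untranslated exon, chr19:23724008-23724031, 12 reads: caaataagggcTAtgtaacataca
Hnrnph1, untranslated exon, chr11:50382066-50382089, 7 reads: ttgcttgtgacTAtttttcattga
Rhbdf2, untranslated exon, chr11:116603351-116603374, 7 reads: agagactgctaTAgttgtccttga
Vmn1r91, untranslated exon, chr7:20102517-20102540, 7 reads: gatgaacatttTAtatatggtaaa
Efemp1, coding exon, chr11:28916912-28916935, 4 reads: aagttctcatgTAtgtgcccacag
Herc2, coding exon, chr7:56137547-56137570, 4 reads: gtgcagtatgcTAtgttttgtgga
Carnmt1, coding exon, chr19:18703406-18703429, 3 reads: tagaattgagcTAtgaggatatta
Sema4b, untranslated exon, chr7:80221125-80221148, 3 reads: ccacatgcacaTAgcttattgtaa
Gpr152, untranslated exon, chr19:4145707-4145730, 3 reads: agatacacataTAaattaaattaa

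The bases beside the TA were not those of an average exonic TA. Over the 151 sites, the base 3 before the T was A at 69.5%, against 29.4% of all TA in exons of these chromosomes, and the base 3 after the A was T at 60.3%, against 29.7%. The base next to the TA on its left was A at 47.0%, against 27.3%, and the base on its right was T at 44.4%, against 27.2%. Since A and T are complementary, these preferences read alike on both strands. The motif ANNTANNT, which is its own reverse complement and so needs no separate search of the other strand, was present at 50 of 151 sites, 33.1%, and at 9.01% of all exonic TA (two-sided exact binomial test, p = 1.49e-16). The reference chromosomes had it at 69 of 177 sites, 39.0%, and at 9.87% of their exonic TA. The difference between the chromosome sets did not pass Fisher's exact test (p = 0.300, odds ratio 0.775). The fully alternating ATATATAT, a special case of that motif, stood at 3 of the 151 sites and at 0.230% of exonic TA. Of the sequences printed, those in Efemp1, Sema4b and Gpr152 have ANNTANNT and the other 6 do not.

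Some sites lay in promoters. In windows from 250 bases before to 50 bases after the starts of RefSeq genes (GRCm38 sequences), 12 sites were found on the 3 chromosomes, 7.10 per Mb of such sequence, and 7 on the reference, 5.15 per Mb (ratio 1.38, 0.500 to 4.13; exact test, adjusted p = 0.861). Of the 12 sites 7 were at coding genes, and none of these 7 had 5 reads or more. One of them, 87 bases upstream of the start of Npas1, a neuronal transcription factor, had 3 reads. It is printed with its surroundings, chosen after its values were seen, because it shows what a TA target looks like in a GC-rich promoter. The 122 bases at chr7:16476806-16476927, plus strand of GRCm38, hold 58.2% G and C and 5 TA, and the capitals mark the TA used.
Npas1: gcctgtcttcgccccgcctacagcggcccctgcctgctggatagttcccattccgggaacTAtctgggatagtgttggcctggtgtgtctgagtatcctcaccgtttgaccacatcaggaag

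The gene content of the chromosomes went with their label. GENCODE lists 14.2 protein-coding genes per Mb on chromosome 7, 13.8 on chromosome 11 and 12.3 on chromosome 19, the 3 highest values of the 19 autosomes. Chromosomes 1, 3 and 12 have 6.28, 6.40 and 5.49 genes per Mb, ranks 17, 16 and 19. Chromosome 18, with 5.86 genes per Mb and rank 18, is not part of the reference. Of the coding genes, 398 on chromosome 7 are olfactory or vomeronasal receptor genes (Olfr and Vmn), against 82 on chromosome 11 and 66 on chromosome 19.

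Insertions were slightly denser on the gene-rich chromosomes together than on the reference, and chromosome 7 did not share in this. Over the 19 autosomes, site density did not follow gene density closely: gene-poor chromosome 18 had the highest density of all, 15.2 sites per Mb, and Spearman's rho was 0.135 (n = 19 chromosomes of 1 library, as a description). Density was 12.6 sites per Mb of annotated span (95% exact Poisson interval 12.2 to 13.0) on chromosomes 7, 11 and 19 and 11.5 (11.2 to 11.8) on the reference, a ratio of 1.09 (1.05 to 1.14; exact conditional binomial test of the rates, p = 2.48e-05). Chromosome 11 had 13.6 sites per Mb (12.9 to 14.2) and chromosome 19 had 13.1 (12.2 to 14.1). Chromosome 7, which has the most genes per Mb, had 11.5 (10.9 to 12.1), rank 16 of 19 autosomes. It lay at 0.999 times the reference (0.944 to 1.06; exact test, adjusted p = 0.977). With the same exact test and Benjamini-Hochberg adjustment over 6 pairs, chromosome 11 lay at 1.18 times the reference (1.12 to 1.25; adjusted p = 5.49e-08) and chromosome 19 lay at 1.14 times it (1.06 to 1.23; adjusted p = 0.00148). Chromosome 7 fell below chromosome 11 (ratio 0.846, 0.790 to 0.907; exact test, adjusted p = 6.36e-06) and below chromosome 19 (ratio 0.875, 0.803 to 0.955; adjusted p = 0.00387). Chromosomes 11 and 19 did not differ beyond counting error (ratio 1.03, 0.948 to 1.13; exact test, adjusted p = 0.550).

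With chromosomes as units, the means were 12.7 ± 1.10 (SD, n = 3) and 11.6 ± 0.566 (SD, n = 3) sites per Mb, the groups overlapped, and the two-sided exact permutation p was 0.2, where 0.1 is the smallest the design allows. Against all 16 other autosomes the ratio was 1.03 (0.994 to 1.06; exact test, p = 0.101). Without chromosome 11 the ratio to the reference was 1.04 (exact test, p = 0.110). Among sites with 5 or more reads, 208 against 318, the ratio was 0.954 (exact test, p = 0.625).

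**Figure D1:**
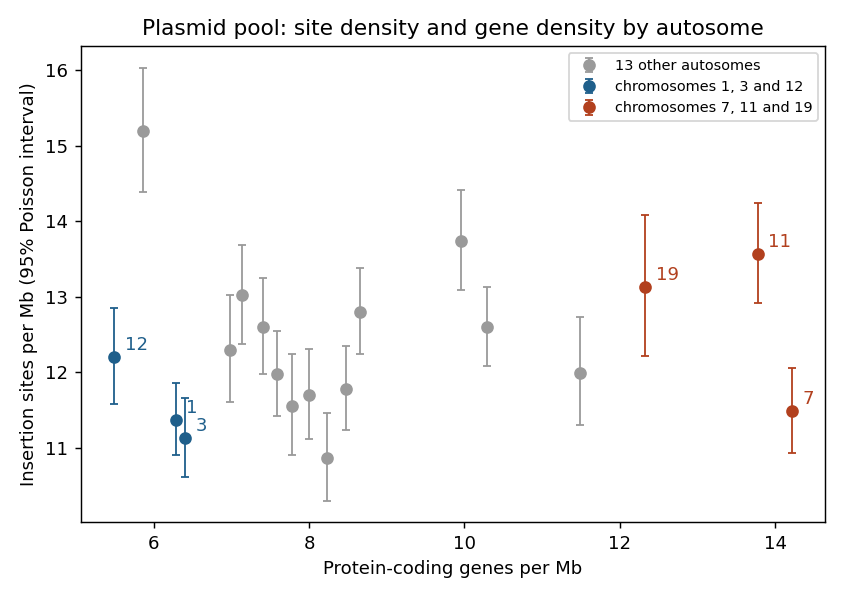
Protein-coding genes per Mb (x axis) and plasmid pool sites per Mb (y axis, not starting at 0) for the 19 autosomes; each point is 1 chromosome and each bar its 95% exact Poisson interval. Chromosomes 11 and 19, at 13.6 and 13.1 sites per Mb, lie above chromosomes 1, 3 and 12, at 11.4, 11.1 and 12.2, while chromosome 7 at 11.5 lies among them; the highest point, at 15.2, is gene-poor chromosome 18.

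Within the chromosomes, windows with more genes held more sites, up to a plateau. The 318 full windows of 1 Mb held 12.5 ± 4.53 sites (SD over windows), from 2 to 34, and the 465 reference windows 11.5 ± 4.07, from 2 to 26. On chromosomes 7, 11 and 19 the mean was 10.5 sites in the 23 windows with no coding gene, 11.0 in the 72 with 1 to 4 genes and 12.6 in the 67 with 5 to 9 genes. It was 13.5 in the 79 windows with 10 to 19 genes, 13.6 in the 34 with 20 to 29, and 13.4 in the 43 with 30 or more. The reference windows gave 9.54, 10.7, 12.2, 13.3, 13.0 and 14.1 in the same classes, the last 2 from 14 and 8 windows. At equal gene class, the gene-rich chromosomes thus held close to the number of sites of the reference. Summed over the classes at the reference means, 3908 sites would fall in their windows and 3977 did, a ratio of 1.02. That ratio was 0.933 for chromosome 7, 1.10 for chromosome 11 and 1.06 for chromosome 19.

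**Figure D2:**
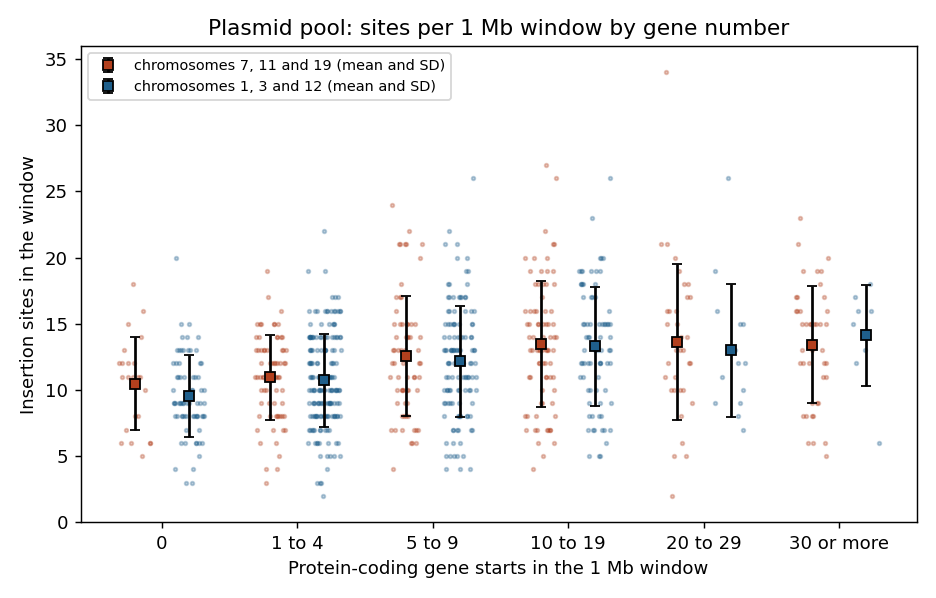
Sites per full 1 Mb window (y axis) by the number of protein-coding gene starts in the window (x axis, 6 classes) in the plasmid pool; small points are windows, spread sideways for visibility, and squares with bars are mean and SD. Means rise from 10.5 to 13.5 sites on chromosomes 7, 11 and 19 and from 9.54 to 13.3 on chromosomes 1, 3 and 12 between windows without genes and windows with 10 to 19 genes, with wide overlap between windows.

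The slope of sites on genes was shallower on the gene-rich chromosomes. In a quasi-Poisson regression over all 2394 full autosomal windows, 10 more genes went with 1.04 times the sites on chromosomes 7, 11 and 19 (95% interval 1.01 to 1.08, n = 2394 windows, p = 0.0154) and with 1.14 times on the reference (1.08 to 1.21, p = 9.69e-06). The ratio of these slopes was 0.917 (0.858 to 0.981, n = 2394 windows, p = 0.0122). Windows are not replicates, and a straight slope was fitted although the class means were level above 10 genes. With the share of the window covered by genes in place of the number of genes, the ratio of slopes was 0.997 (n = 2394 windows, p = 0.841).

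The relation of sites to the number of genes varied between the 3 chromosomes, and the difference was not tested. As a description, Spearman's rho between sites and genes over windows, which share the library and its depth, was 0.106 on chromosome 7 (142 windows), 0.375 on chromosome 11 (118 windows) and 0.440 on chromosome 19 (58 windows), against 0.296 over the 465 reference windows. With gene coverage as the measure, rho was 0.225, 0.180 and 0.224 on chromosomes 7, 11 and 19, and 0.255 on the reference. By number of genes, the class means on chromosome 11 ran from 10.6 sites in windows without genes to 15.1 in windows with 10 to 19 genes. On chromosome 7 they stayed between 10.1 and 12.4 in every class. The 30 windows of the 3 chromosomes with 5 or more Olfr or Vmn genes held 10.9 ± 4.65 sites, from 2 to 21. On chromosome 7 alone, 24 such windows held 10.4 ± 4.27 sites and the other 118 windows 11.7 ± 4.30, and this difference was not tested. With these genes not counted, rho was 0.184 on chromosome 7 and 0.511 on chromosome 19, and the slope on the 3 chromosomes was 1.07 (1.03 to 1.11, n = 2394 windows in the same regression, p = 0.000595). The ratio of slopes to the reference was then 0.937 (0.875 to 1.00, n = 2394 windows, p = 0.0617).

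Single windows rarely stood out. Of the 2394 windows, 12 (0.501%) had more sites than the autosomal mean of 12.2 allows (exact Poisson test, Benjamini-Hochberg adjusted p under 0.05), and 1 of them was among the 318 windows of chromosomes 7, 11 and 19, a share of 0.314%. None was called low by this test, although at an unadjusted p under 0.05 12 of the 318 windows were low (3.77%, against 4.14% of all windows) and 17 were high (5.35%, against 4.47%), shares near those of all windows. The called window is the first annotated one of chromosome 11, chr11:3000001-4000000, with 34 sites from 56 reads (exact Poisson test, adjusted p = 0.00013). Of these, 29 fell within 100 kb, and 22 lay inside Sfi1, a gene for a centrosomal protein that binds centrin. With sites merged within 1 kb the window held 22 sites, with merging within 10 kb 8, and in neither case was it called. Under a negative binomial null with the spread of the windows, 6 of 2394 windows were called high (0.251%), and none of the 318. The cause of the clustering was not tested.

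Gene-rich windows ranged from few sites to many. On chromosome 7 the window with the most genes, chr7:45000001-46000000, has 67 genes, among them Bax and Ftl1, and held 13 sites. The next, chr7:30000001-31000000, has 60 genes and held 8 sites. The third, chr7:103000001-104000000, has 59 genes, 52 of them olfactory or vomeronasal receptor genes, and held 6 sites. The most sites on that chromosome were 24, in chr7:114000001-115000000, whose 8 genes include Pde3b, Calca and Cyp2r1. Next came 23 sites in chr7:43000001-44000000, a window of 36 genes with Siglec and kallikrein clusters, and 21 in chr7:8000001-9000000, whose 6 genes are vomeronasal receptor genes. Tied with the latter at 21 sites were chr7:38000001-39000000, with 6 genes, and chr7:127000001-128000000, with 57, both named after their values were seen. The fewest were 2, in a vomeronasal receptor cluster at chr7:22000001-23000000 with 27 genes, and 3 in chr7:54000001-55000000, where only Luzp2 starts.

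On chromosome 11, 65 genes share chr11:69000001-70000000, the interval of Trp53, Polr2a and Kdm6b, with 15 sites. The keratin interval chr11:99000001-100000000 has 58 genes and held 20 sites, and chr11:58000001-59000000, with 48 genes of which 21 are receptor genes, held 19. After the first window, the most sites were 27, around Csf2, Il3 and Rapgef6 at chr11:54000001-55000000, and 26 around Nf1 and Suz12 at chr11:79000001-80000000, with adjusted p of 0.0626 and 0.0812 in the exact Poisson test. The fewest were 5, in chr11:103000001-104000000, which holds 21 genes, among them Wnt3, Wnt9b and Nsf, and 5 windows with 0 to 7 genes tied at 6 sites, the first of them chr11:13000001-14000000, where no coding gene starts. On chromosome 19 the 3 gene-richest windows, with 53, 49 and 46 genes between chr19:4000001 and 7000000, held 15 sites each. Its most were 22, around Smc3 and Pdcd4 and again around Eif3a and Grk5, followed by 21 around Gnaq and Vps13a, tied with 1 other window, and its fewest were 4, around Smarca2 and around Sorcs3. On the reference chromosomes the most sites in a window were 21, 26 and 26, and the gene-richest windows, with 35, 47 and 28 genes, held 15, 16 and 26.

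Genes held a larger share of sites on the gene-rich chromosomes, where they also cover more of the sequence. Inside protein-coding genes lay 2042 of the 4011 sites within the annotated span, 50.9% (49.4 to 52.5%), where genes cover 46.0% of the span. On the reference 42.7% of sites were in genes that cover 36.6%. The shares of sites differed (Fisher's exact test, odds ratio 1.39, adjusted p = 9.96e-15 over 12 tests), and each exceeded its share of the span (exact binomial test, adjusted p = 1.09e-09 and 2.10e-19). Per Mb, genes of chromosomes 7, 11 and 19 received 13.9 sites and the rest 11.4, a ratio of 1.22 (1.14 to 1.29). The reference ratio was 1.29 (1.22 to 1.36), and the ratio of the 2 was 0.942 (0.868 to 1.02). By chromosome, genes received 1.12 times the density outside them on chromosome 7 (1.02 to 1.24), 1.25 times on chromosome 11 (1.13 to 1.38) and 1.30 times on chromosome 19 (1.13 to 1.51).

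Introns carried that excess. They received 14.4 sites per Mb on the 3 chromosomes and held 46.5% of sites in 40.6% of the span (exact binomial test, adjusted p = 9.31e-14), against 39.5% in 33.4% on the reference. Exons of coding genes received 10.2 sites per Mb and held 4.41% of sites (177) in 5.44% of the span (exact binomial test, adjusted p = 0.00413), while reference exons held 3.21% in 3.17% (adjusted p = 0.904). The ratio of inside to outside density in exons was 0.802 (0.686 to 0.933) on the 3 chromosomes and 1.01 (0.865 to 1.18) on the reference, and 0.792 (0.640 to 0.981) of the one relative to the other. The exons also differ in TA content, with 43.6 TA per kb on chromosomes 7, 11 and 19 and 50.8 on the reference. Per 10000 TA, exons received 2.33 sites (2.00 to 2.70) and 2.29 (1.96 to 2.66). Their ratio was 1.02 per TA (0.821 to 1.26; exact test, adjusted p = 0.873), against 0.875 per base (0.705 to 1.09; adjusted p = 0.861). TA content outside exons and promoter windows was not analysed here.

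Distance to gene starts showed a dip at the start itself and a slow fall far from it. Within 1 kb of a protein-coding start, the 3 chromosomes held 73 sites, 8.86 per Mb (6.95 to 11.1). From 1 to 5 kb the density was 13.6, from 5 to 10 kb 13.7, from 10 to 50 kb 13.3, and from 50 to 100 kb 13.1. It was 11.2 from 100 to 500 kb and 10.6 beyond 500 kb. The density within 1 kb was 0.650 times that from 1 to 5 kb (0.500 to 0.836; exact test, adjusted p = 0.00142), and all 3 chromosomes lay between 8.51 and 9.14 within 1 kb. The reference had 10.4 within 1 kb and a ratio of 0.726 (0.535 to 0.968; exact test, adjusted p = 0.0425). No distance class differed between the chromosome sets after adjustment over 7 classes, the lowest adjusted p in the exact test being 0.137, for 50 to 100 kb.

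**Figure D3:**
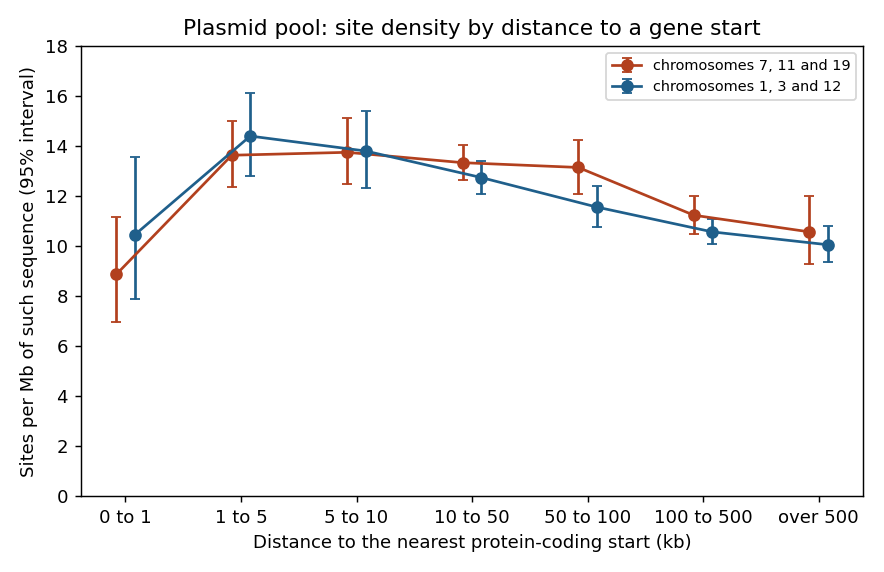
Plasmid pool sites per Mb of sequence (y axis) in 7 classes of distance to the nearest protein-coding start in kb (x axis); points are densities and bars 95% exact Poisson intervals. Both sets of chromosomes are lowest or near lowest within 1 kb, at 8.86 and 10.4 sites per Mb, highest between 1 and 10 kb, and fall again beyond 100 kb.

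Taken with this dip, the first 5 kb around starts held no detectable excess on the gene-rich chromosomes. They held 12.1% of sites in 12.1% of the span (exact binomial test, adjusted p = 0.904), while on the reference they held 6.55% in 5.54% (adjusted p = 0.00256). The inside to outside ratio was 1.01 (0.913 to 1.11) and 1.19 (1.07 to 1.33), and 0.842 (0.729 to 0.972) of the one relative to the other. Within 5 kb the density itself was 0.929 times the reference's (0.808 to 1.07; exact test, adjusted p = 0.290). Elsewhere it was 1.10 times the reference's (1.06 to 1.15; exact test, adjusted p = 3.23e-05). At the reference's densities in the 7 distance classes, 3853 sites would have been on the 3 chromosomes and 4011 were, a ratio of 1.04. It was 0.950 on chromosome 7, 1.13 on chromosome 11 and 1.09 on chromosome 19, so the chromosomes kept the order they had before.

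At the level of single genes, those with a site were longer. Of 4381 coding genes on the 3 chromosomes, 1071 (24.4%) had a site in the body, and 81 had 5 or more. The median length was 43.8 kb for genes with a site and 8.97 kb for the others. The mean density used for single genes is that of the 3 chromosomes together, 12.6 sites per Mb. Chromosome 7 alone had 11.5, chromosome 11 had 13.6 and chromosome 19 had 13.1, so counts given for chromosome 7 genes are higher than its own density gives. On chromosome 7 the body of the growth factor receptor gene Fgfr2 spans 2961 kb in this annotation, holds 29 other coding genes within it and had 40 sites, where its length at the mean density gives 37.2. Dlg2, a synaptic scaffold gene of 1973 kb, had 19 sites where 24.8 would fall. Tenm4, a teneurin gene, had 13 against 9.29, Nell1 11 against 11.2 and the neurotrophin receptor gene Ntrk3 9 against 7.06.

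A few genes had more than their length gives. Sfi1 had 22 sites in 61.6 kb, against 0.774 at the mean density. The tumour suppressor gene Nf1, which encodes a Ras GTPase-activating protein, had 14 sites in 242 kb, against 3.04. Tial1, an RNA-binding protein gene of 21.9 kb, had 5 sites against 0.275, all with at least 2 reads. Drg1, whose annotated body overlaps that of Sfi1, and the autophagy kinase gene Ulk2 had 6 sites each, against 0.993 and 0.997, and Commd1 had 5 against 1.08. On chromosome 19, the cytochrome gene Cyp2c29 had 5 against 0.770, Grk5, a kinase of G protein-coupled receptors, 8 against 2.59, and Pik3ap1 and the sorting protein gene Pacs1 6 each, against 1.42 and 1.76. Homer2, Ate1, Obox1 and Sbf2 on chromosome 7 and 9930021J03Rik on chromosome 19 had 5 to 9 sites, against 1.15 to 3.85. All these genes were picked by their counts, so the excess is a description and was not tested. The other genes of chromosomes 11 and 19 with the most sites lay on both sides of what their length gives. Below it were the ion channel gene Asic2 with 11 sites against 13.7, Tenm2 with 10 against 15.4, the sarcoglycan gene Sgcd with 10 against 13.7 and the kinase gene Prkg1 with 12 against 15.1. Above it were the channel gene Trpm3 with 12 against 10.8, Hpse2 with 10 against 7.56, the zinc finger gene Glis3 with 9 against 5.29 and Rnls with 8 against 3.20.

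Among gene groups, the interval of the zinc finger genes lay above the level of all coding genes, also above that of chromosome 7, where most of them are. With 10 kb on each side, all coding genes of the 3 chromosomes received 13.6 sites per Mb (13.0 to 14.1), with 12.0 (11.3 to 12.8) on chromosome 7, 14.9 on chromosome 11 and 14.3 on chromosome 19. The 117 Zfp genes, 92 of them on chromosome 7, received 19.6 (15.6 to 24.3), with 83 sites. The 154 vomeronasal receptor genes, all on chromosome 7, received 9.56 (7.05 to 12.7), an interval that holds the 12.0 of their own chromosome, and the 392 olfactory receptor genes 11.9 (9.58 to 14.7). The 8 myosin heavy chain genes (Myh), 7 of them on chromosome 11, received 28.3 (15.5 to 47.5) from 14 sites. The intervals of the remaining 16 groups all held the level of all genes. Among these, the 27 keratin genes received 23.6 and the 28 keratin-associated protein genes 22.1, from 12 and 9 sites. The 20 imprinted genes received 19.1 (12.7 to 27.6), the 26 ribosomal protein genes 20.0, the 16 Nlrp genes 17.0 and the 32 Cyp2 genes 15.8. The lowest were the 11 chemokine genes (Ccl), with 2 sites, and the 19 Mas-related receptor genes, with 5. With 20 groups described, some intervals lie off the common level by counting alone, and members of a group share clusters and similar sequence, whose effect on the placement of reads was not tested.

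**Figure D4:**
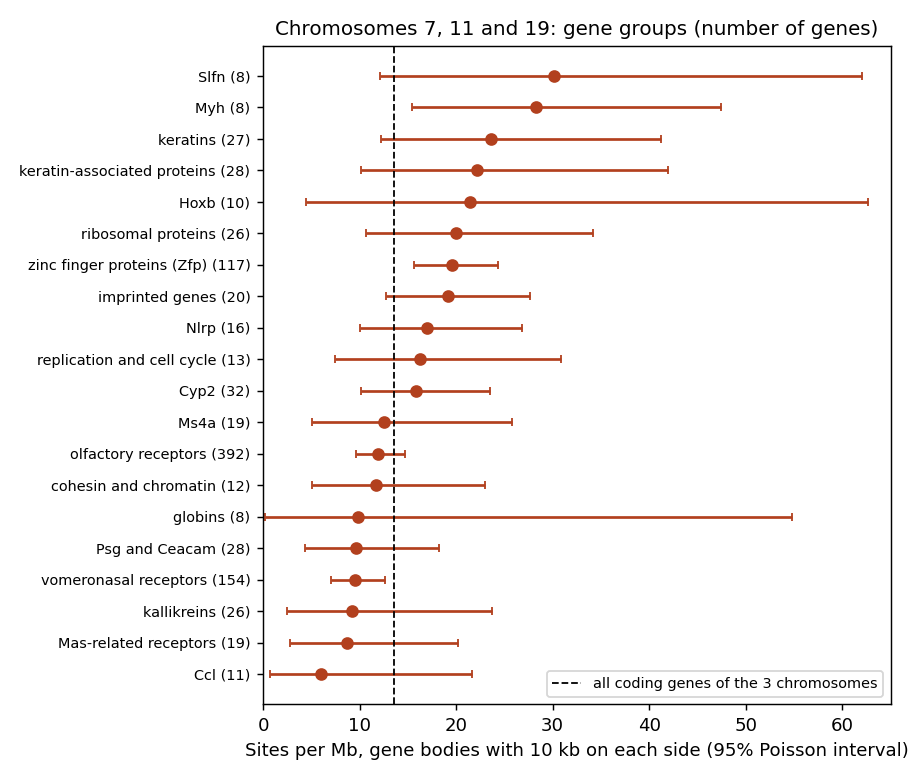
Plasmid pool sites per Mb (x axis) in 20 gene groups of chromosomes 7, 11 and 19, over gene bodies with 10 kb on each side; points are densities, bars 95% exact Poisson intervals, and the number after each name is its number of genes. The dashed line is the 13.6 sites per Mb of all coding genes; the zinc finger and Myh intervals lie above it, and the vomeronasal interval lies below it but holds the 12.0 of chromosome 7, where all its genes are.

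Reads per site were low throughout and like those of the reference. The 4013 sites came from 8004 reads, with a median of 2 and a maximum of 17. A single read supported 1885 sites, 47.0%, against 46.0% on the reference (Fisher's exact test, p = 0.379), and 5 or more reads supported 5.18% against 5.93% (p = 0.123). By chromosome, the share with a single read was 49.8% on 7, 43.6% on 11 and 48.2% on 19. It was 44.9%, 44.9% and 49.2% on chromosomes 1, 3 and 12, and differences between single chromosomes were not tested. Of the 12 best-supported sites, 4 per chromosome, 7 were intronic, where 46.5% of all sites of these chromosomes were. They had 17 reads in Crk, an adaptor protein gene, and 17 in the nucleotidase gene Nt5c2, 16 each in Usp29, Agbl1 and Cpeb3, 15 in Aff4, a gene of transcription elongation, and 13 in Trpm3. One site with 17 reads lay 5.65 kb from Slfn5, outside coding genes, and sites of 13 to 15 reads lay nearest to Eed, Mdh1 and 1700015G11Rik. Ptar1, whose sequence is printed with the others, had 12 reads in an untranslated exon.

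Orientation leaned slightly against the strand of the gene. Sites were on the plus strand of the genome in 49.9% (2004 of 4013). Inside genes of 1 strand, 949 of 2000 sites, 47.5% (45.2 to 49.7%), were listed on the strand of the gene (two-sided exact binomial test, adjusted p = 0.0358 over 3 chromosome sets), against 48.4% on the reference (adjusted p = 0.124) and 48.1% on the 13 other autosomes (adjusted p = 0.000807). Among sites with at least 2 reads the share was 47.2% (exact binomial test, p = 0.0656), and 47.1% on the other autosomes (p = 3.81e-05). Whether the listed strand is that of the transposon or of its transcript is not given in the sources used here.

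The other libraries show how far the plasmid pool's pattern holds. The control without transposons had no site anywhere, where a count of 0 allows up to 3. The remobilized pool, from transposons already in the genome, had 112 of its 746 sites on chromosomes 7, 11 and 19 and 82 on the reference, a density ratio of 1.99 (1.49 to 2.68; exact test, p = 2.33e-06). Relative to the plasmid pool this is an odds ratio of 1.82 (Fisher's exact test, adjusted p = 5.69e-05 over 3 tests). Chromosome 11 had 58 sites, 0.488 per Mb, chromosome 19 had 28, 0.480 per Mb, and the reference as a whole had 0.176 per Mb. Chromosome 7 again lay below chromosomes 11 and 19, with 26 sites, 0.183 per Mb, close to the reference. Its deficit against chromosomes 11 and 19 was larger than in the plasmid pool, with odds ratios of 0.443 and 0.435 (Fisher's exact test, adjusted p = 0.00162 and 0.00443). Of the remobilized sites on the 3 chromosomes, 28.6% lay within 5 kb of a start, against 12.1% of plasmid pool sites (odds ratio 2.90, Fisher's exact test, adjusted p = 1.13e-05), as 15.9% did against 6.55% on the reference, and 53.6% lay in coding genes, against 50.9% (adjusted p = 0.632). The pools differ in number of sites, 746 against 31146, and in reads, 2619 against 78338. No site of the remobilized pool on any chromosome was within 10 bp of a plasmid pool site.

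**Figure D5:**
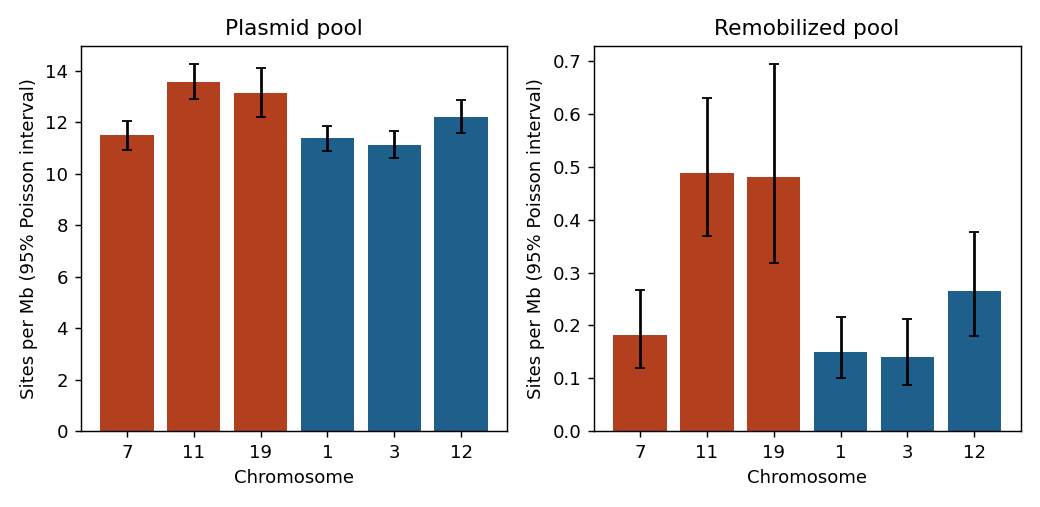
Sites per Mb (y axis, a scale of its own for each pool) on the 3 gene-rich (left 3 bars of each panel) and the 3 reference chromosomes in the plasmid pool and the remobilized pool; bars are densities and lines 95% exact Poisson intervals. Chromosome 7 stands below chromosomes 11 and 19 in both pools, at 11.5 against 13.6 and 13.1 and at 0.183 against 0.488 and 0.480 sites per Mb.

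Of the 9 clones, 3 had sites on these chromosomes, all on chromosome 11. The 20kb clone had 1 site in an intron of H2afv, a histone variant gene, with 568 reads, and the 2Mb clone had 4 sites of 1 to 10 reads. The 5kb clone had 1 site of 1 read, 61.3 kb from Axin2, and it lay 6 bp from a plasmid pool site that also had 1 read on the same strand.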

How the data were processed

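The authors deposited 1 table per library that lists single-base positions with a strand and a read count, whole numbers with no normalization stated. The submitters' processing notes name FastQC, BWA and deepTools and the build mm10, without versions or roles, and filters and the handling of duplicates are not given in the sources used here. Counts carry no molecular identifiers, so exact intervals and floors cover counting error only. Each of the 12 libraries analysed was alone in its group, and of 13 samples the parental line was not used here. The plasmid pool had 78338 reads, 15307 of them without a position.

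Lines within 10 bp were merged by single linkage to 1 site at the position with the most reads. The members, gene groups and tests were chosen with earlier results of these data known. Genes, exons and starts came from GENCODE mouse release 21 (GRCm38). A chromosome's span ran from 3 Mb to where its last GENCODE gene ends, in place of its length, and assembly gaps and mappability were not analysed here. No genome sequence was used, so bases came from transcripts and RefSeq promoter windows, which had 0 conflicting bases. Densities were compared with two-sided exact conditional tests, shares with two-sided Fisher's and binomial exact tests, and windows with exact Poisson tests. Slopes came from 1 quasi-Poisson fit over all autosomal windows, and ratios of ratios have normal intervals on the log scale. Intervals are 95%, and p-values were adjusted by Benjamini-Hochberg per family of tests, with a threshold of 0.05.

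Named were, per chromosome, the 3 windows with the most sites, the 3 with the most genes, the 2 with the fewest sites, the 5 genes with the most sites, the 5 with the most per 10 kb among genes with 5 or more sites, and the 4 sites with the most reads. On each reference chromosome they were the window with the most sites and the one with the most genes. Promoter sites of coding genes needed 5 reads, which none had, so the one printed falls outside this rule. Alternatives were other merging distances, read minimums, references, window sizes, gene sets, nulls and left-out chromosomes. The scripts were tested on simulated data. Python 3.11.15, numpy 2.4.6, pandas 2.3.3, scipy 1.17.1, statsmodels 0.14.6 and matplotlib 3.10.9 were used.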

Additional observations from a re-analysis of the deposited data

Results flagged for a closer look

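The slope of sites on genes differed between the chromosome sets: per 10 genes, the ratio of the slope on chromosomes 7, 11 and 19 to that on chromosomes 1, 3 and 12 was 0.917 (quasi-Poisson regression, n = 2394 windows, p = 0.0122). Remobilized sites favoured chromosomes 7, 11 and 19 over the reference more than plasmid pool sites did, with an odds ratio of 1.82 (Fisher's exact test, adjusted p = 5.69e-05). On chromosomes 7, 11 and 19 they also lay more often within 5 kb of a protein-coding start, with an odds ratio of 2.90 (Fisher's exact test, adjusted p = 1.13e-05). The reference shares were 15.9% against 6.55%, and whether the chromosome sets differ in this was not tested. Between the pools, the balance of chromosome 7 against chromosome 11 differed with an odds ratio of 0.443 and that against chromosome 19 with 0.435 (Fisher's exact test, adjusted p = 0.00162 and 0.00443).

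The ratio of site density within 5 kb of a start to that elsewhere was 0.842 times the reference's on chromosomes 7, 11 and 19 (95% interval 0.729 to 0.972). The same ratio for exons was 0.792 (0.640 to 0.981). These intervals exclude 1 but were not adjusted over the 4 features compared. Density within 5 kb of a start was itself 0.929 times the reference's (0.808 to 1.07), and elsewhere 1.10 times (1.06 to 1.15). For exons it was 0.875 times inside (0.705 to 1.09) and 1.10 times outside (1.06 to 1.15).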

How the results depend on the processing

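Of 63 values recomputed under other settings, 44 kept their direction and their side of the threshold, or for counts stayed within 1.5 times. Leaving out windows of 40 or more sites could not move the density ratio or the slopes, since these 6 chromosomes hold 0 such windows, and the called window count without the only called window is 0 by construction. With 5 or more reads per site, which left 208 sites, the density ratio to chromosomes 1, 3 and 12 turned to 0.954, the slope per 10 genes was 1.01, the ratio of slopes 0.972, the difference in the share inside genes 7.02 percentage points and the density within 1 kb of a start over that from 1 to 5 kb 0.545, none past the threshold. The density ratio also missed it against all 16 other autosomes (1.03) and without chromosome 11 (1.04). The slope missed it in 2 Mb windows (1.02). The ratio of slopes missed it with all annotated genes (0.975), without Olfr and Vmn genes (0.937) and with gene coverage as the measure (0.997). The called window count went from 1 to 0 with merging within 1 kb, with at least 2 or at least 5 reads, with a negative binomial null, without the first window of chromosome 11, and with that window merged within 10 kb. The difference in exonic TA between chromosome sets was 0.591 percentage points within 2 bp and -4.39 at 1 fixed offset, past the threshold in neither. The share of sites on the strand of the gene was 47.2% with at least 2 reads and no longer passed. Some alternatives were chosen after seeing the data. They were those without the first window of chromosome 11 or with it merged within 10 kb, and all those of the dip at starts and of the remobilized pool. The one of exons and introns at another read minimum was also chosen then. The cause of these changes was not tested. No paired analysis was possible because each group has 1 library.

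The median was 2 reads per site, and a site of 1 read cannot be told apart from an error of placement. One library gives no spread between cultures.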

Other observations

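Other gene groups of chromosomes 7, 11 and 19, with 1 to 9 plasmid pool sites each, had intervals that held the 13.6 sites per Mb of all coding genes. The 8 Schlafen genes (Slfn) received 30.1 sites per Mb (95% exact Poisson interval 12.1 to 62.0) from 7 sites and the 10 Hoxb genes 21.4 from 3. The 26 kallikrein genes received 9.25 from 4 sites, the 28 Psg and Ceacam genes 9.62 from 9, the 8 globin genes 9.84 from 1 and the 19 Ms4a genes 12.5 from 7. Genes of replication and the cell cycle received 16.2, and those of cohesin and chromatin 11.7, from 9 and 8 sites.

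Sites of the remobilized pool on these chromosomes had higher shares near gene starts than the plasmid pool at the 4 distances computed, and so they had on the reference chromosomes. Within 10 kb of a protein-coding start were 39.3% of its 112 sites, 22.6% of plasmid pool sites and 21.6% of the span, and within 50 kb 83.9%, 57.8% and 54.7%. Within 1 kb it had 4 sites, 3.57%, against 1.82% of plasmid pool sites. On chromosomes 1, 3 and 12 the remobilized pool had 31.7% of 82 sites within 10 kb, against 12.5% of plasmid pool sites, and 3.66% against 1.04% within 1 kb. Only the share within 5 kb on chromosomes 7, 11 and 19 was tested.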
